A study of Mus musculus with 10 samples.

Results

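Fgf21, which encodes a hormone of the fibroblast growth factor family, and Klb, which encodes beta-klotho, the co-receptor that the hormone needs, were followed through 5 groups of mouse liver RNA. The members were all probe sets that the platform annotation assigns to either gene, and each gene had 1, so that 2 of the 11868 probe sets tested, and 2 of the 5928 genes measured, are described. Both genes were chosen by their measured differences between these groups, so their levels and differences are given as a description without a test. FGF21 is secreted mainly by the liver and binds an FGF receptor only together with beta-klotho. Its gene is known as a target of PPAR-alpha in fasting, of the factor ATF4 when amino acids are out of balance, and of the carbohydrate-responsive factor ChREBP. In hepatocytes beta-klotho also pairs with the receptor FGFR4 to receive the gut hormone FGF15, which restrains bile acid synthesis, and both genes are also expressed in the exocrine pancreas.

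The study asked which liver genes depend on the sterol regulatory element-binding proteins (SREBPs), the factors that switch on cholesterol and fatty acid synthesis, and used MG_U74Cv2 oligonucleotide arrays on liver RNA of male mice. TgSREBP-1a and TgSREBP-2 mice carried a transgene for the transcriptionally active nuclear form of human SREBP-1a or SREBP-2. These lines are known to use a promoter of the gluconeogenic enzyme PEPCK, which a diet poor in carbohydrate turns on. Their age, and that of their wild-type littermates (SREBP wild type), was 12 to 16 weeks. All of them ate a diet high in protein and low in carbohydrate over the last 2 weeks, so the controls shared it. Scap-/- mice were Scap-/-;MX1-Cre animals, which had lost SCAP, the escort protein that SREBPs need for processing, through a Cre recombinase under the interferon-responsive MX1 promoter. That promoter is not restricted to hepatocytes. They and the corresponding wild-type mice (Scap wild type) were 10 to 12 weeks old, ate Teklad chow, and had both received 4 injections of polyinosinic-polycytidylic acid, the last of them 14 days before the liver was taken.

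Each group was 1 pool of RNA from 5 livers, hybridised to 2 arrays, which gave 10 arrays in all. Spread and standard errors below therefore hold the error of hybridisation and not the variation between mice, and the number of arrays limits the precision. Duplicate arrays correlated across probe sets at 0.992 to 0.995, and the array medians lay between 4.70 and 4.77 on the log2 scale. The 18S rRNA control signal ran from 7.19 to 9.88 and was higher on replicate 2 in every group. Scap, Srebf1 and Srebf2 have 0 probe sets among those tested here, so the deletion and the transgenes were not checked at their own transcripts. The tissue label could be checked at 2 of 10 hepatocyte markers, Serpina1a and Ahsg, whose probe sets both had low signals (3.43 and 2.86, log2, mean of 10 arrays). The 6 measured genes of amino acid breakdown and the urea cycle, pathways of the liver, ran from 3.26 (Asl, argininosuccinate lyase) to 10.24 (Gpt, alanine aminotransferase), both named after their values were seen, so the label was only weakly checked.

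The promoters of both genes are shown because transcription factors named above act there. The sequences are the 250 bases before the annotated start in RefSeq (build GRCm38.p6), at chr7:45615491-45615740 on the minus strand for Fgf21 and at chr5:65348161-65348410 on the plus strand for Klb, written 5′ to 3′, with capitals marking matches to 6 motifs searched on both strands.
Fgf21: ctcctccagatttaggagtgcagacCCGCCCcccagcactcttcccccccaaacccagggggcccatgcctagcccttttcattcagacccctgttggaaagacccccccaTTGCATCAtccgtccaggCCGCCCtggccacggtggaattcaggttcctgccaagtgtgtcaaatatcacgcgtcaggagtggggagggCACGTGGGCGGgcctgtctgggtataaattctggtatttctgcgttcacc
Klb: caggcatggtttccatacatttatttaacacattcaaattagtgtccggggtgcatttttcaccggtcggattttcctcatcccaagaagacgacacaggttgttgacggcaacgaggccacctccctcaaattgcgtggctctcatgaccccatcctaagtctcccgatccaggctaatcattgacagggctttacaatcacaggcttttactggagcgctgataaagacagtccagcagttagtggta
In the Fgf21 window, TGATGNAA, the core of the amino acid response element bound by ATF4, matched once, on the opposite strand, at 139 to 132 bases before the start. The E-box CACGTG, which ChREBP and SREBP-1 can bind, matched at 50 to 45 bases before the start, and its last base overlapped a GC box, GGGCGG, at 45 to 40. The GC box had 3 matches in all. Over 32851 promoter windows of the same length, TGATGNAA was present in 3.45%, CACGTG in 6.02% and GGGCGG in 32.7%. The sterol regulatory element TCACNCCAC, present in 1.05% of windows, the nuclear receptor half-site AGGTCA (14.0%) and the CCAAT box (33.8%) had 0 matches in either gene's window, and the Klb window had 0 matches to any of the 6 motifs. These matches describe letters in a short window only. GC content was 59.6% for Fgf21 and 48.0% for Klb, against a median of 52.4%.

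Fgf21, at probe set 165847_i_at, was lowest in the chow-fed wild type and highest in the wild type fed the high protein/low carbohydrate diet. The 2 Scap wild type arrays read 4.82 and 4.82, and the Scap-/- arrays 5.10 and 5.09 (log2 expression, replicates 1 and 2). The SREBP wild type arrays read 5.68 and 5.72, those of TgSREBP-1a 4.89 and 5.14, and those of TgSREBP-2 5.33 and 5.45. Group means were thus ordered as SREBP wild type (5.70), TgSREBP-2 (5.39), Scap-/- (5.10), TgSREBP-1a (5.01) and Scap wild type (4.82). The 3 lowest means were not all resolved. TgSREBP-1a had duplicates 0.25 apart, which is more than its distance of 0.08 from Scap-/- or 0.19 from Scap wild type, whereas the upper steps of 0.30 each exceeded the duplicate gaps.

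Klb, at probe set 166935_i_at, was high in all 3 groups without a transgene and lowest in TgSREBP-1a. It read 6.40 and 6.50 in Scap wild type, 6.25 and 6.34 in Scap-/-, and 6.22 and 6.38 in SREBP wild type. It read 5.29 and 5.15 in TgSREBP-1a and 5.75 and 5.85 in TgSREBP-2. The means of the first 3 groups were 6.45, 6.29 and 6.30, and neighbours in their order lay no farther apart (0.151 and 0.0044) than the duplicates of SREBP wild type (0.154). TgSREBP-2 (5.80) lay 0.49 below the lowest of them and TgSREBP-1a (5.22) a further 0.59 below, steps wider than any gap between Klb duplicates. Both probe sets were measured closely, with residual standard deviations of 0.089 (Fgf21) and 0.085 (Klb) against a median of 0.11 over all probe sets.

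**Figure D1:**
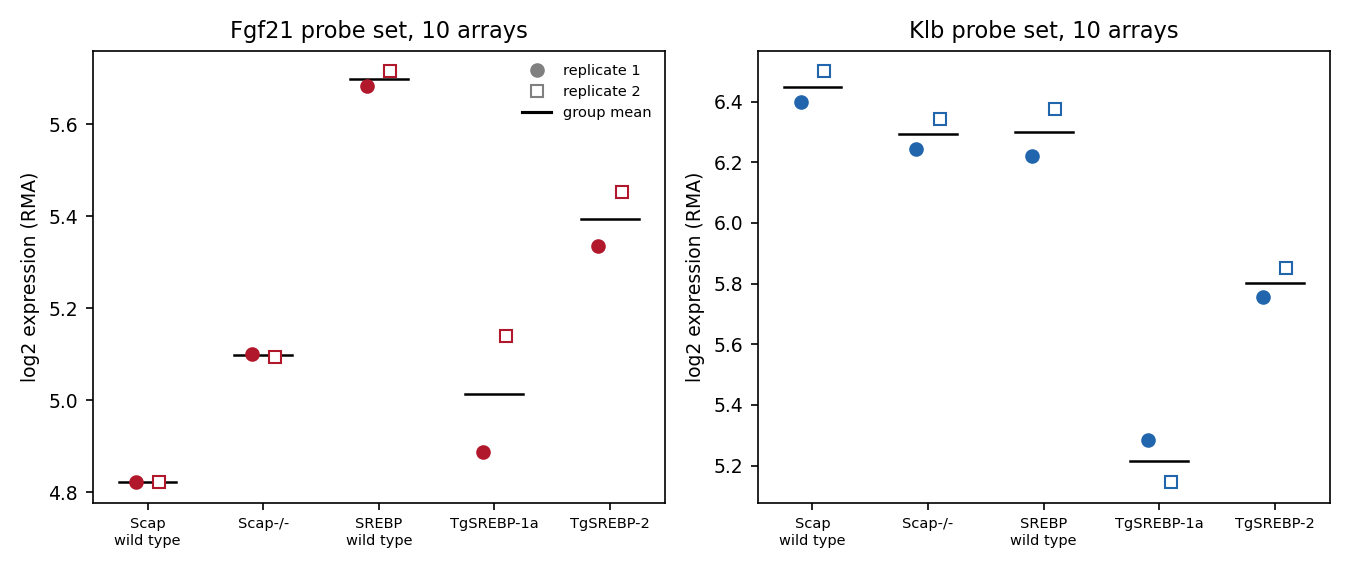
Log2 expression of the Fgf21 probe set (left) and the Klb probe set (right) on each of the 10 arrays, by group, with replicate 1 as filled circles, replicate 2 as open squares and the group mean as a line; the vertical axes do not start at 0. Fgf21 was highest in SREBP wild type (5.68 and 5.72), and Klb was lowest in TgSREBP-1a (5.29 and 5.15).

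The signals were of middle to fairly high rank. Fgf21 lay above 51.5% to 68.1% of the probe sets on the same array, and Klb above 57.8% to 81.1%. The deposited values hold no detection calls, so how much of either signal is background is not known, and a fold change taken from them may understate that of the transcript. Both probe sets carry the suffix _i_at, used by the manufacturer for sets with fewer unique probes than the design required, as do 11.0% of the probe sets tested. Between the lowest and the highest group mean, Fgf21 spanned 0.88 and Klb 1.23, and 1.42% and 0.590% of all probe sets spanned more. Since the genes were chosen by differences between these groups, nothing is read from these ranks.

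In TgSREBP-1a, both genes were lower than in the littermates on the same diet. Fgf21 was 1.61-fold lower (log2 difference -0.69, SE 0.10), and Klb 2.12-fold lower (log2 difference -1.08, SE 0.10). The nearest arrays of the 2 groups were 0.54 apart for Fgf21 and 0.94 for Klb, so neither gene's groups overlapped, as was true of 39.4% of all probe sets. Both members passed the call rule used for all probe sets (an adjusted p under 0.05 in limma with a difference of at least 1.5-fold), as did 1.04% of probe sets, and 0.354% were called lower. Since the genes were picked with these comparisons known, nothing is read from that count or from any call of theirs given below. Fgf21 was not called when TgSREBP-1a replicate 1 was omitted (-0.56) or when replicate 2 of its wild type was (-0.67), while Klb was called under all 16 alternatives tried. Pools of whole liver cannot tell fewer cells of a type from less RNA per cell.

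In TgSREBP-2, both genes were again lower than in the same wild type, by less. Fgf21 differed by -0.30 (SE 0.10, 1.24-fold) and Klb by -0.50 (SE 0.10, 1.41-fold), and neither was called, against 0.118% of probe sets. The arrays did not overlap for either gene (0.23 and 0.37 between the nearest), and neither did those of 35.0% of probe sets. Both transgenic groups were compared with the same 2 wild-type arrays, so the direct comparison of the transgenics is given as well. There, Fgf21 was lower in TgSREBP-1a by 0.38 (SE 0.10, 1.30-fold) and Klb lower by 0.59 (SE 0.10, 1.502-fold), with 37.0% of probe sets not overlapping. Klb stood just past the 1.5-fold floor and was called, as were 0.514% of probe sets (0.244% lower), but it was not called under 8 of 16 alternatives, among them 3 other normalisations (-0.54, -0.56 and -0.55) and the omission of any of the 4 arrays compared (-0.66 to -0.52). The difference of Fgf21 in this comparison was -0.25 without TgSREBP-1a replicate 1.

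Loss of SCAP went with small differences. Fgf21 was higher in Scap-/- than in Scap wild type by 0.28 (SE 0.10, 1.21-fold), with duplicates that differed by at most 0.0069 in either group. Klb was lower by 0.16 (SE 0.10, 1.11-fold), with 0.056 between the nearest arrays, which is less than the gap between duplicates of either group. Neither was called, and 0.0843% of probe sets were. The arrays did not overlap at 29.7% of probe sets.

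The wild types differed at Fgf21 by more than any other pair of groups described. Fgf21 was 1.84-fold higher in SREBP wild type than in Scap wild type (log2 difference 0.88, SE 0.10), with 0.86 between the nearest arrays. That size was exceeded by 0.202% of probe sets, and Fgf21 was called, as were 0.0927% of them (0.0253% higher). This comparison was among those the genes were chosen by, so nothing is read from the call or from the rank. Its call was lost when any of those 4 arrays was left out (0.86 to 0.89) or when these 4 arrays were fitted alone. Klb differed by -0.15 (SE 0.10), a size exceeded by 28.0% of probe sets, with 0.023 between the nearest arrays, and was not called. Arrays of the groups did not overlap at 37.5% of probe sets. Diet, age, the injections and the experiment they belong to all differ between these wild types and cannot be told apart.

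**Figure D2:**
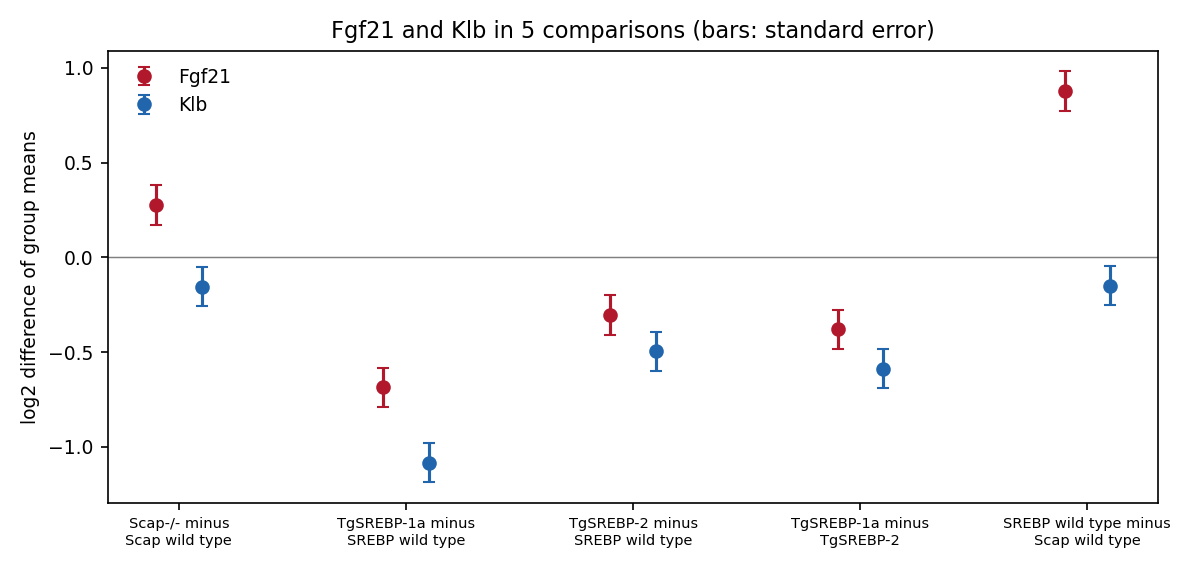
Log2 difference of group means for Fgf21 and Klb in the 5 comparisons, with bars for the standard error of the fit. Both genes lie below 0 in the 3 comparisons within the transgenic study, while in the comparison of the wild types Fgf21 lies at 0.88 and Klb at -0.15.

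Other ligands and receptors of the family were measured in part. Of 21 FGF ligand genes listed, 5 were measured and 0 were called in any of the 5 comparisons. Fgf14, an intracellular family member that acts on sodium channels, differed by 0.31 in Scap-/-, by -0.37 in TgSREBP-1a and by 0.51 between the wild types (limma adjusted p = 0.229). The median size of the ligands' differences, without regard to sign, was 0.18 in Scap-/- and 0.15 in TgSREBP-1a, beside 0.077 and 0.094 over all probe sets, and 0.038 beside 0.091 between the wild types. The others were Fgf8 and Fgf10, ligands of development, Fgf12, which is also intracellular, and Fgf16, and their differences lay between -0.22 and 0.34. Of 9 receptor and binding genes, 4 were measured and 0 called. The receptor Fgfr1, the usual partner of beta-klotho in fat, stood at 7.50 and differed by -0.10 in TgSREBP-1a, with 0.21 at a second probe set. Fgfr2 differed by 0.03 there, with -0.33 at its second probe set, and the FGF-binding proteins Fgfbp1 and Fgfbp3 by 0.10 and 0.09. The median of the receptor list in that comparison was 0.06, beside -0.03 over all probe sets.

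Downstream of the receptors, 5 of 24 signal transmission genes were measured. Pik3r1, the regulatory subunit of phosphatidylinositol 3-kinase, rose 2.05-fold in TgSREBP-1a (log2 difference 1.03, SE 0.20, limma adjusted p = 0.0293), a call held by 0.683% of probe sets in this direction and by 2.04% of the 49 pathway genes measured. It read 6.41 and 6.07 in SREBP wild type, 7.44 and 7.10 in TgSREBP-1a and 6.88 and 6.47 in TgSREBP-2, and replicate 1 was the higher in all 5 groups. It lost its call without any 1 of the 4 arrays compared (0.86 to 1.21, adjusted p from 0.0504 to 0.326). The other 4 genes measured lay between -0.12 and 0.29 there. Of 21 feedback inhibitors and early response genes, 5 were measured and 0 called, with Spred3 and Spred2, which restrain the MAP kinase branch, at -0.04 and -0.09 in TgSREBP-1a.

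Among genes that lie upstream of Fgf21 or share its regulators, 1 was called in 1 of the 5 comparisons. Of 36 transcription factors and kinases that act on Fgf21 or Klb, 5 were measured and 0 called, and the brightest, the xenobiotic receptor Nr1i2 and Atf2, differed by 0.32 and -0.23 in TgSREBP-1a. There the median size of the 5 differences was 0.20, beside 0.094 over all probe sets. Of 55 PPAR-alpha target genes, 5 were measured. Vnn1, a pantetheinase, was 1.98-fold higher in TgSREBP-1a than in TgSREBP-2 (log2 difference 0.99, SE 0.14, limma adjusted p = 0.00797), reading 5.69 and 6.10 against 5.01 and 4.80, and 0.270% of probe sets were called higher there. That call was lost without TgSREBP-1a replicate 2 (0.78) or TgSREBP-2 replicate 2 (0.88), and against SREBP wild type Vnn1 differed by 0.52 and -0.47 without a call. The median size of the PPAR-alpha targets' differences between the transgenics was 0.32, beside 0.086 over all probe sets. In the comparison of the wild types the 5 PPAR-alpha targets had a median of 0.23, beside 0.02 over all probe sets, and 0 were called. The lipid droplet genes Plin2 (0.63) and Plin5 (0.52), named after their values were seen, differed most among them.

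Of 38 amino acid response genes, the targets of ATF4, 9 were measured and 0 were called in any of the 5 comparisons, with medians from -0.07 to 0.01. Between the wild types, which differ in protein intake among other things, they lay between -0.24 and 0.31. There the median size of the 9 differences was 0.16, beside 0.091 over all probe sets. Psph, of serine synthesis, stood at 0.22 and Wars, a tRNA synthetase, at -0.02, with 0.22 at its second probe set. Of 40 genes of amino acid breakdown and the urea cycle, 6 were measured and 0 called. Gpt, alanine aminotransferase, and Nags, which makes the activator of the urea cycle, differed by -0.35 and -0.27 between the wild types. At its second probe set Gpt differed by -0.09. The median size of the 6 differences in that comparison was 0.21, beside 0.091 over all probe sets. Of 24 genes of bile acid synthesis and transport, only Acot8 (-0.15) and the transporter subunit Slc51a (-0.06) were measured, with the values those in TgSREBP-1a. Neither is taken as a measure of signalling through beta-klotho. Of 20 growth hormone, IGF and gluconeogenesis genes, 3 were measured and 0 called, with Pcx, pyruvate carboxylase, at 0.01 and the leptin receptor Lepr at 0.14 in TgSREBP-1a. Over the 10 lists, 49 genes were measured of 281 listed. Called were 1 in TgSREBP-1a against SREBP wild type, 1 between the transgenics and 0 in the other 3 comparisons. In those 3, the genes with an unadjusted limma p under 0.05 numbered 3 (Scap-/-), 4 (TgSREBP-2) and 6 (between the wild types). Over all 11868 probe sets the numbers were 451, 752 and 862.

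**Figure D3:**
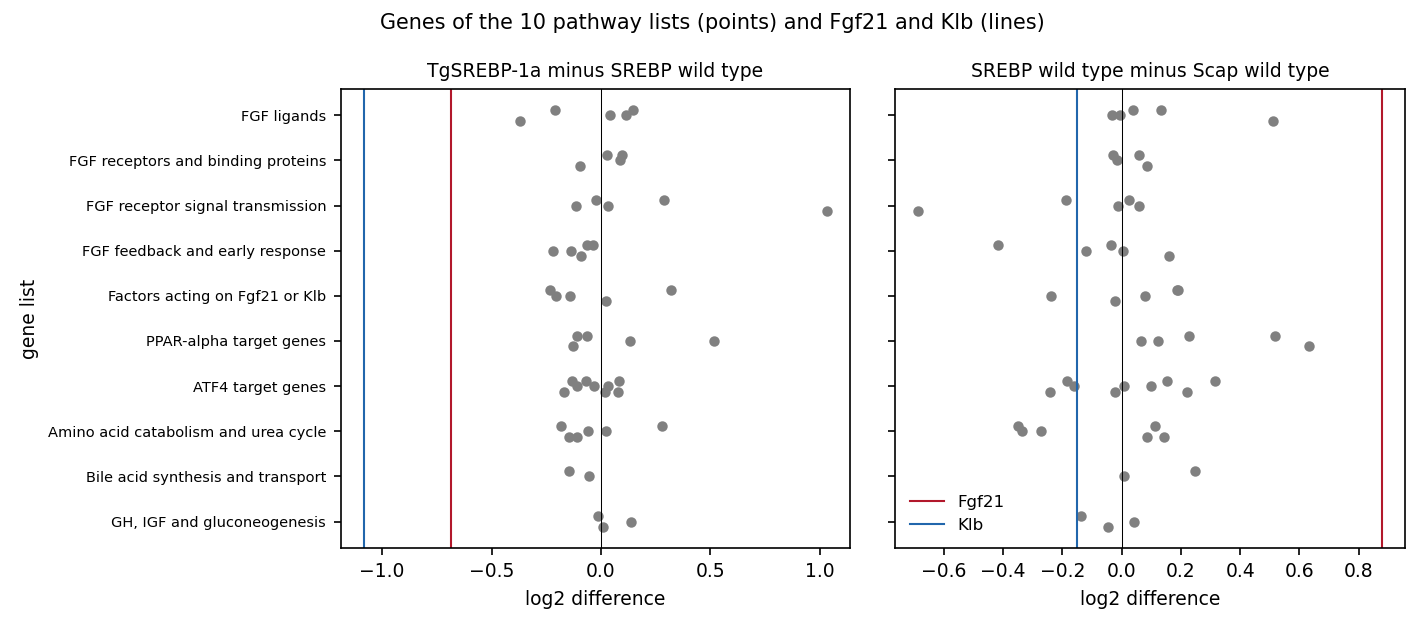
Log2 differences of the measured genes of the 10 pathway lists (points, leading probe set of each gene) in TgSREBP-1a against SREBP wild type (left) and between the wild types (right), with Fgf21 and Klb as vertical lines. The point farthest right on the left panel is Pik3r1 (1.03), and no other point there lies past the Fgf21 difference of -0.69 in size.

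Some markers of pancreatic acinar cells, which express both genes as well, differed between the same pools. Of 32 such markers 11 were measured, and log2 of their summed level was 9.84 to 9.99 in Scap wild type, 9.29 to 9.38 in Scap-/-, 10.43 to 10.85 in SREBP wild type, 9.19 to 9.27 in TgSREBP-1a and 11.08 to 11.41 in TgSREBP-2. Cpa1, a carboxypeptidase of these cells, read 8.37 and 8.39, then 5.59 and 5.45, 10.25 and 9.53, 5.38 and 5.60, and 10.84 and 10.49 in the same order of groups. Most of the change in the sum came from Cpa1, with group means from 5.49 to 10.67. Pla2g1b, the marker with the highest mean over the 10 arrays, had group means from 8.06 to 8.30 at its leading probe set. Cpa1 fell by 4.39 in TgSREBP-1a (SE 0.20, limma adjusted p = 7.04e-07) and by 2.86 in Scap-/- (adjusted p = 0.000152). Between the wild types it was higher by 1.505 on the high protein/low carbohydrate diet (adjusted p = 0.0155). That call was lost on leaving out either array of Scap wild type and with these 4 arrays fitted alone (adjusted p = 0.104 to 0.193). Gp2 and Cuzd1, membrane proteins of zymogen granules, differed by -1.48 and -0.66 in TgSREBP-1a, by 1.08 and 1.12 in TgSREBP-2 and by 0.12 and 0.30 between the wild types. Cuzd1 lost its TgSREBP-1a call without any 1 of the 4 arrays (-0.68 to -0.63), and Gp2 lost its TgSREBP-2 call on omission of SREBP wild type replicate 2 or any 1 of the 4 transgenic arrays (0.90 to 1.18). Its lower level in Scap-/- (-1.32) was called, but not when Scap-/- replicate 2 (-1.14) or replicate 1 of the wild type (-1.17) was left out, nor with the 4 arrays of that study alone.

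The remaining 8 acinar markers were Cela2a, Ctrc, Pnliprp1, Amy2a5, Cpb1, Ptf1a, Rbpjl and Pla2g1b, and at their leading probe sets 0 were called in any of the 5 comparisons. The second probe set of Ctrc, a chymotrypsin, was called between the transgenics (-0.998, limma adjusted p = 0.00154), where its leading probe set differed by -0.60 and the elastase Cela2a by -0.57. In that comparison Cpa1, Gp2 and Cuzd1 were called lower in TgSREBP-1a, by -5.18, -2.56 and -1.78. Amy2a5 and Cpb1, enzymes that acinar cells make in large amounts, had low signals (2.90 and 2.97). Fgf21 and Cpa1 lay on the same side of 0 in TgSREBP-1a against either other group of its study and between the wild types. They lay on opposite sides in TgSREBP-2, where Fgf21 was lower and Cpa1 higher (0.78, not called), and in Scap-/-, where Fgf21 was higher and Cpa1 lower. Klb and Cpa1 lay on opposite sides in TgSREBP-2 and between the wild types. The part of acinar RNA in the differences of Fgf21 and Klb was not tested.

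Markers of other cells also differed in TgSREBP-1a. Of 14 macrophage and Kupffer cell markers 3 were measured, and 2 of them were called higher, as were 0.683% of probe sets. These were Vsig4, a complement receptor (log2 difference 1.14, limma adjusted p = 0.0185), and Laptm5 (1.05, adjusted p = 0.00538). The third, C1qc, differed by 0.17 without a call. Log2 of the summed level of the 3 was 9.09 to 9.46 in SREBP wild type, 10.22 to 10.31 in TgSREBP-1a and 9.78 to 9.90 in TgSREBP-2. Both calls were lost when replicate 2 of the wild type (0.86 and 0.87) or replicate 1 of TgSREBP-1a (1.12 and 0.99) was omitted, and that of Vsig4 also when the other TgSREBP-1a array was (1.16). Of 9 bile duct markers 3 were measured. Epcam fell by 0.63 (limma adjusted p = 0.00538) at its leading probe set and differed by 0.05 and 0.01 at its other probe sets. That call was lost without TgSREBP-1a replicate 1 (-0.61). In TgSREBP-2 the leading probe set of Epcam differed by -0.54 without a call. Sox9 and Cldn7 were not called and differed by 0.24 and 0.10 at their leading probe sets. Their other probe sets gave -0.34 and -0.02 for Sox9 and -0.03 for Cldn7. For the 2 stellate cell markers measured of 11, log2 of the summed level was 6.18 to 6.85 in SREBP wild type, 7.56 to 7.73 in TgSREBP-1a and 6.96 to 7.25 in TgSREBP-2. Colec11 among them, named after its value was seen, differed by 1.38 in TgSREBP-1a without a call. Acta2, the other, differed by -0.21. The sum is mostly Colec11, whose mean in TgSREBP-1a was 7.51 against 4.17 for Acta2. No measured marker of adipocytes (2 of 11), islet cells (2 of 11), endothelial cells (3 of 13), stellate cells or hepatocytes (2 of 10) was called in any comparison. Their part in the lower Fgf21 and Klb was not tested.

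**Figure D4:**
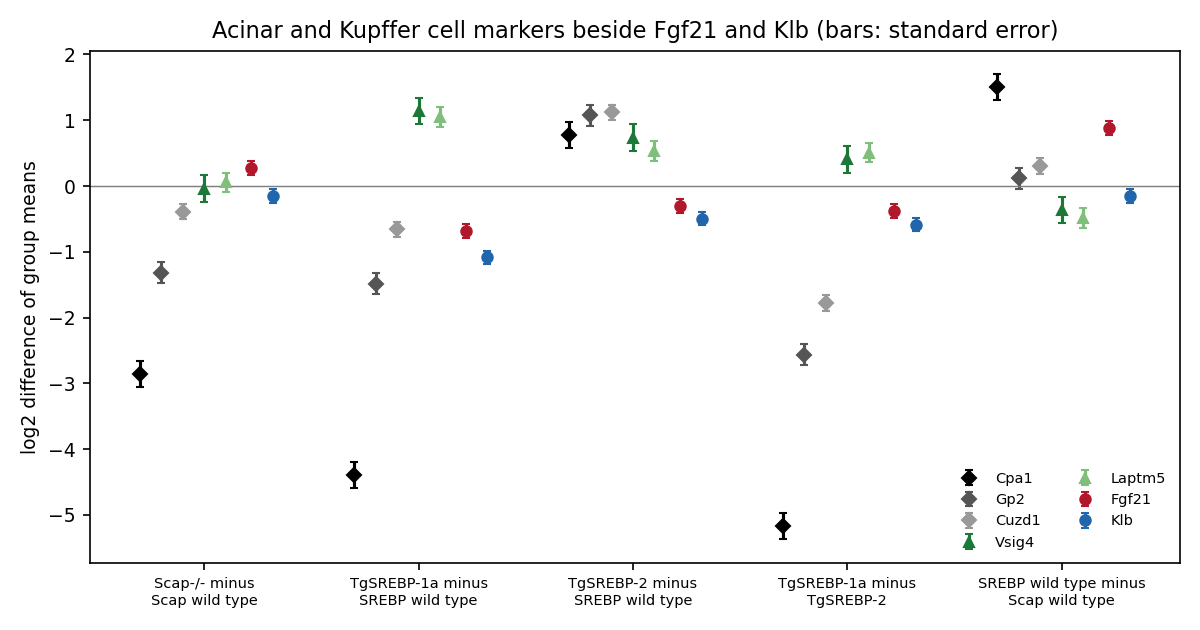
Log2 differences, with standard errors, of the acinar markers Cpa1, Gp2 and Cuzd1 (diamonds), the Kupffer cell markers Vsig4 and Laptm5 (triangles) and Fgf21 and Klb (circles) in the 5 comparisons. In TgSREBP-2 against SREBP wild type the acinar markers lie above 0 (0.78 to 1.12) and Fgf21 and Klb below it (-0.30 and -0.50).

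The probe sets with patterns most like those of the members were found by the root mean square distance between centred group means over the 5 groups, among 6858 probe sets with 1 gene symbol that is no clone or predicted name. Closest to Fgf21 was 1 probe set of Fdps, farnesyl diphosphate synthase of cholesterol synthesis, at a distance of 0.063 (log2). Its group means were 4.69 in Scap wild type, 4.93 in Scap-/-, 5.38 in SREBP wild type, 4.83 in TgSREBP-1a and 5.23 in TgSREBP-2, while the second Fdps probe set lay between 0.00 and 0.07 in all 5 comparisons. Against SREBP wild type the first differed by -0.55 in TgSREBP-1a and -0.16 in TgSREBP-2, although SREBPs switch on cholesterol synthesis. The second had a low signal (3.48). Whether either probe set reports the Fdps transcript was not tested. Strada (0.093), Cyp2c23 (0.12), Rnf17 (0.12) and Rab3c (0.12) followed. The epoxygenase Cyp2c23 was the brightest of them (8.10) and differed by -0.76 in TgSREBP-1a and by 0.64 between the wild types. Rnf17, a testis gene, differed by -0.31 and 0.67, but by -0.05 and 0.03 at its other probe set. Strada, a pseudokinase partner of the kinase LKB1, differed by -0.62 and 0.62, but its brighter probe set by 0.00 and 0.25.

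Closest to Klb were Fhl4 (0.11), Fam47e (0.12), Prl5a1 (0.12), Sun3 (0.13) and a further probe set of Rab3c (0.16). Between the wild types this Rab3c probe set differed by -0.29, and the one near Fgf21 by 0.51. Fhl4, a LIM domain protein, read 6.25 in Scap wild type, 6.44 in Scap-/-, 6.21 in SREBP wild type, 5.17 in TgSREBP-1a and 5.73 in TgSREBP-2 as group means. The placental prolactin-family gene Prl5a1 differed by -1.24 in TgSREBP-1a and by -0.59 in TgSREBP-2. The suffix _i_at was carried by 3 of the 5 probe sets near Fgf21 and 2 of the 5 near Klb, against 1307 of 11868 tested. It was also carried by 11 of the 42 probe sets called lower in TgSREBP-1a, both members among them, and by 7 of the 81 called higher. The part of this kind of probe set in the differences was not tested. The likeness in pattern rests on 5 pools and says nothing of shared function or control.

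**Figure D5:**
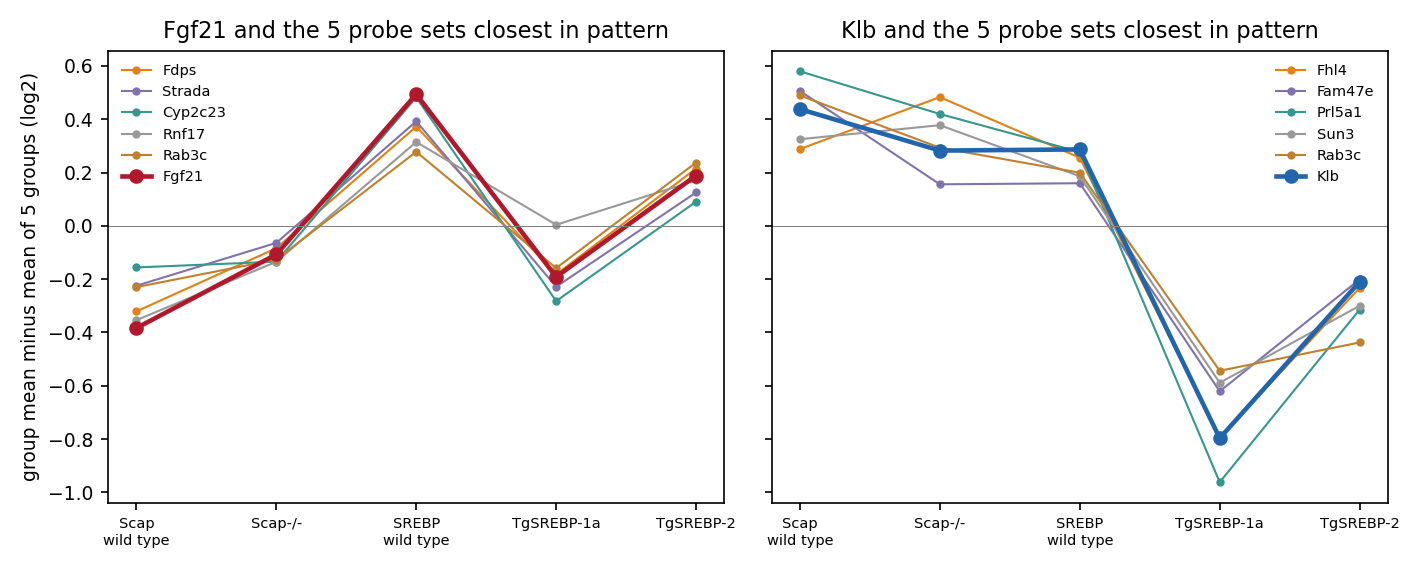
Group means, each centred on the mean of the 5 groups (log2), of Fgf21 (left, thick line) and Klb (right, thick line) with the 5 probe sets closest in pattern to each. On the left the lines peak in SREBP wild type, and on the right they are lowest in TgSREBP-1a.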

How the data were processed

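The authors' deposited table held log2 expression values per probe set, made with RMA per the submitters' processing notes, which give no version. The design description gives MICROARRAY SUITE 5.0 as the software the data were processed with. RMA subtracts background, normalises across arrays and summarises probes, and it compresses differences at low signal. The log2 scale was inferred from the range of 2.17 to 13.3. Of 11934 probe sets, 66 controls were left out. The platform annotation names 1 gene for 7717, several for 150 and none for 4001, and symbols were updated through RefSeq (GRCm38.p6). The probe set with the highest mean stood for a gene. The comparisons used lmFit and eBayes of limma 3.58.1 (R 4.3.3) in 1 fit of 10 arrays and 5 groups with 5 residual and 6.26 prior degrees of freedom, two-sided, with Benjamini-Hochberg adjustment over 11868 probe sets. Calls needed an adjusted p under 0.05 and at least 1.5-fold. The procedure was tested on simulated data with errors drawn independently for each array. A difference shared by arrays of 1 replicate number was not part of that simulation. Since each group is a pool, p-values hold hybridisation error alone. The members, the 10 pathway lists and the 8 marker lists were chosen with earlier results of these data known. Named were all measured members of the ligand, receptor, acinar, macrophage, bile duct and stellate lists, and called members of the other lists. Also named were the 2 brightest of lists without a call, genes said to be named after their values were seen, and the 5 nearest patterns per member.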

Additional observations from a re-analysis of the deposited data

How the results depend on the processing

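All 10 differences of Fgf21 and Klb kept their sign under the 16 alternatives each was given. These were 3 normalisations, a replicate block, the 18S rRNA signal as a covariate, the omission of each array and a fit within each study. For the comparison of the wild types, which come from different experiments, that last fit held their 4 arrays alone. Of the values, 156 moved by less than the residual standard deviation. The other 4 were Fgf21 in TgSREBP-1a on leaving out either TgSREBP-1a array, over -0.81 to -0.56 against SREBP wild type and -0.51 to -0.25 against TgSREBP-2. Replicate numbers were not taken to pair the arrays, since not every correlation of deviations between groups was above 0.1. They ran from -0.175 to 0.332, 3 of 10 lay below 0, all with TgSREBP-2, and all those among the other 4 groups lay between 0.204 and 0.332, so arrays of 1 number may share a difference there. The replicate block changed the number of probe sets called from 10 to 19 (Scap-/-), 123 to 186 (TgSREBP-1a), 14 to 37 (TgSREBP-2), 61 to 96 (between transgenics) and 11 to 36 (between wild types), with Pik3r1 in TgSREBP-1a at an adjusted p of 8.27e-05, and the pathway genes called to 2 between the transgenics and 1 between the wild types. With plain _at probe sets alone the counts were 4, 67, 4, 36 and 5, and 0 pathway genes between the transgenics. A 2-fold floor gave 59 in TgSREBP-1a, 31 between the transgenics and 0 pathway genes there. The 18S covariate gave 22 in TgSREBP-2 and 22 between the wild types. Arrays of the same study alone gave 4 for Scap-/-, and the 4 wild-type arrays alone gave 5 between the wild types. Leaving out 1 array gave 3 to 11 for Scap-/- (lowest without Scap wild type replicate 1; 6 without the other array of that group or Scap-/- replicate 1), 40 to 134 in TgSREBP-1a (40 without its replicate 1, 57 without its replicate 2, 63 without SREBP wild type replicate 2), 7 to 17 in TgSREBP-2 (7 without its replicate 1, 9 without SREBP wild type replicate 2), 23 to 65 between the transgenics (23 and 35 without TgSREBP-1a replicates 1 and 2, 30 and 38 without those of TgSREBP-2) and 3 to 10 between the wild types (3 without Scap wild type replicate 1, 7 on omitting SREBP wild type replicate 2, TgSREBP-2 replicate 1 or TgSREBP-2 replicate 2). Pathway genes called ran from 0 to 1 in TgSREBP-1a and between the transgenics. The lone array left in a group is assumed to vary like the other groups. The cause of these shifts was not tested, beyond the fewer probe sets or arrays that some settings hold. No second probe set of Fgf21 or Klb was there to be tried, and signal over background is not known.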
